A study of Arabidopsis thaliana with 6 samples.

Results

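Aliphatic glucosinolates are sulfur-rich defence compounds of Arabidopsis and its relatives that are made from methionine. The carbon chain of methionine is first lengthened, in cycles that BCAT4 opens by removing the amino group and in which the methylthioalkylmalate synthases MAM1 and MAM3 add the carbon, and the lengthened amino acids then enter the core pathway through the cytochromes P450 CYP79F1 and CYP79F2, followed by CYP83A1. Rosette leaves are a main site of their synthesis and storage, and when the tissue is damaged the compounds are broken down to products that deter chewing insects. The genes of this pathway were followed through 5 probe sets, of the 22746 on the array once control probe sets were set aside. They were taken by name, with earlier results of these data known: the probe set of BCAT4 (257021_at, AT3G19710), 249866_at for MAM1 (AT5G23010), 249867_at for MAM3 (AT5G23020), 262717_s_at for CYP79F1 and CYP79F2 together (AT1G16410 and AT1G16400), and 254687_at for CYP83A1 (AT4G13770).

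The platform annotation pairs 257021_at with BCAT4 and does not list the other 4 probe sets, so their gene names rest on that choice alone, and none of them is assigned to another gene. The RefSeq gene table for TAIR10.1 places MAM1 and MAM3 next to each other on chromosome 5, with no gene between them, and CYP79F1 and CYP79F2 next to each other on chromosome 1. It gives MAM3 under the symbol IMS2, with MAM3 as a synonym. The signal of CYP79F1 cannot be separated from that of CYP79F2, since 1 probe set stands for both.

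Total RNA of Arabidopsis thaliana plants aged 3 weeks was hybridised to 6 arrays, with 2 arrays of the vip5 mutant, 2 of the vip6 mutant and 2 of wild type (WT). VIP5 and VIP6 encode homologues of Rtf1 and Ctr9, proteins that in yeast belong to the Paf1 complex, which travels with RNA polymerase II. The sample labels give the genotype and the age, and give neither the alleles, the accession shared by the groups, the tissue, nor whether the replicates of a genotype were grown apart. The p-values thus reflect no more than array-to-array spread within genotypes, possibly technical, and in such bulk RNA fewer cells of a kind and less RNA per cell cannot be told apart.

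The 6 arrays had similar brightness, with median intensities between 178.6 and 189.1, and all 5 members were bright enough to be tested among 14323 probe sets. The 18 hybridisation control probe sets were 2.45 to 7.06 times as bright on replicate 2 as on replicate 1 in vip5, 1.76 to 3.95 times in vip6 and 1.40 to 2.17 times in WT, so differences within each replicate number are given beside the pooled ones. Of the marker lists for plant parts, 1 of 6 leaf genes, 1 of 7 flower genes, 1 of 5 root genes and 0 of 3 senescence genes could be named on the array. RCA, the Rubisco activase of green cells, was at 24527 and 46440 in vip5, at 20305 and 38063 in vip6 and at 22676 and 32585 in WT, so green tissue was present in every group and the groups overlapped. The anther gene A9 was at 199 and 168.2 in vip5, 143.7 and 195.6 in vip6, and 159.9 and 162.7 in WT. EXP7, an expansin of root hairs, was at 15.2 and 6.9 in vip5, 10.7 and 10.3 in vip6, and 51.1 and 33 in WT. EXP7 was too dim to be tested, yet all 4 mutant arrays lay below both WT arrays. They did so for 4 of the 5 members and for 13.2% of tested probe sets. MAM3, 1 of the 4, was bright enough to be tested mainly through WT. The part that root tissue plays in the results below was not tested.

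The first question was how far each step of the pathway differed in vip5 and in vip6 from WT. BCAT4, MAM3 and the CYP79F1/F2 probe set stood at 30.0% to 47.2% of their WT mean in the mutants, while MAM1 and CYP83A1 stood at 72.9% to 84.8%. All 5 were lower in vip5 and in vip6 than in WT by their means. BCAT4 passed the test for the average of both mutants, as did 0.223% of tested probe sets as lower. That call was lost with a pseudocount of 16 or with no filter on dim probe sets. No member passed in either mutant alone, against 0.0419% of tested probe sets lower in vip5 and 0.0698% in vip6. With the replicate number as a block in the model, BCAT4, MAM3 and CYP79F1/F2 passed in each mutant. In that fit 1.21% of tested probe sets passed as lower in vip5 and 1.05% in vip6. MAM3 met the brightness filter mainly through WT, so its place among these calls is a description only.

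BCAT4, the methionine-oxoacid aminotransferase at the entry of chain elongation, had intensities of 3339 and 3357 in vip5, 3230 and 3295 in vip6, and 6459 and 7714 in WT. All 4 mutant arrays lay within a narrow band well below both WT arrays. Means were 3348 ± 12.3 in vip5, 3262 ± 45.5 in vip6 and 7086 ± 887 in WT (SD, n = 2 each), so the spread in WT was far wider than in the mutants. The log2 fold change on the log2(intensity + 39.4) scale was -1.07 in vip5 (standard error 0.18, limma adjusted p = 0.122) and -1.10 in vip6 (standard error 0.18, limma adjusted p = 0.109). The average of the mutants differed from WT by -1.09 with a standard error of 0.16, and this passed at a limma adjusted p of 0.0482. That call was lost with a pseudocount of 16 (adjusted p = 0.0619), with no filter on dim probe sets (adjusted p = 0.118) and with any single array left out (adjusted p from 0.106 to 0.374), and with the replicate block BCAT4 passed in each mutant and for their average.

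MAM1, the synthase that condenses the 2-oxo acid with acetyl-CoA in the early elongation cycles, was at 5033 and 4475 in vip5, 5365 and 4906 in vip6, and 5904 and 7143 in WT. The mutant arrays again lay below both WT arrays, by a small margin. The means of 4754 ± 394 in vip5 and 5135 ± 325 in vip6 stood against 6524 ± 877 in WT (SD, n = 2 each). The log2 fold changes of -0.45 in vip5 and -0.34 in vip6 did not pass (limma adjusted p = 0.451 and 0.618). Within replicate 1 the differences were -0.23 in vip5 and -0.14 in vip6, and within replicate 2 they were -0.67 and -0.54, so most of the difference came from the second replicate of each genotype. Without WT replicate 2, MAM1 was at -0.20 in vip6.

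MAM3, the neighbouring synthase that accepts a wider range of chain lengths and makes the long-chain compounds, was far dimmer, at 64 and 109.3 in vip5, 65.2 and 94.6 in vip6, and 304.6 and 228.8 in WT. The groups did not overlap, and the lowest WT array was more intense than every mutant array. MAM3 averaged 86.7 ± 32.0 in vip5, 79.9 ± 20.8 in vip6 and 267 ± 53.6 in WT (SD, n = 2 each), which puts the mutants at 32.5% and 30.0% of WT. The log2 fold change was -1.29 in vip5 and -1.36 in vip6, each with a standard error of 0.25 (limma adjusted p = 0.145 and 0.155), and -1.33 for the average of the mutants (limma adjusted p = 0.0656). On the mutant arrays MAM3 lay between the 32.8th and 40.6th percentile of all probe sets, against the 54.2nd and 60.6th on the WT arrays. It therefore met the brightness filter mainly through WT, and the pseudocount shortens its fold change: in vip5 it was -1.48 with a pseudocount of 16 and -0.98 with a pseudocount of 100.

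The CYP79F1/F2 probe set reports the P450 enzymes that turn chain-elongated methionine into aldoximes, the first committed step of the core pathway. Its intensities were 196 and 298.1 in vip5, 185.6 and 327.3 in vip6, and 561.3 and 646.8 in WT. No mutant array reached the WT range, and in each mutant replicate 2 was the brighter. It averaged 247 ± 72.2 in vip5 and 256 ± 100.2 in vip6, against 604 ± 60.5 in WT (SD, n = 2 each). The log2 fold changes of -1.19 in vip5 and -1.16 in vip6 had a standard error of 0.28 and did not pass (limma adjusted p = 0.209 and 0.232). The value in vip6 was -1.51 without vip6 replicate 2 and -0.81 without vip6 replicate 1.

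CYP83A1, the P450 that oxidises those aldoximes further, had 5446 and 6882 in vip5, 6369 and 6626 in vip6, and 6818 and 8504 in WT. Here vip5 replicate 2 lay above WT replicate 1, so vip5 and WT overlapped, while both vip6 arrays lay just below both WT arrays. The means of 6164 ± 1015 in vip5 and 6498 ± 182 in vip6 stood against 7661 ± 1192 in WT (SD, n = 2 each). The log2 fold changes were -0.31 in vip5 and -0.23 in vip6 (limma adjusted p = 0.638 and 0.792), with 95% intervals of -0.79 to 0.17 and -0.71 to 0.25. Those intervals include 0 and a sizeable decrease alike. The value in vip5 was -0.48 without vip5 replicate 2 and -0.15 without vip5 replicate 1, and that in vip6 was -0.39 without WT replicate 1 and -0.069 without WT replicate 2.

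**Figure D1:**
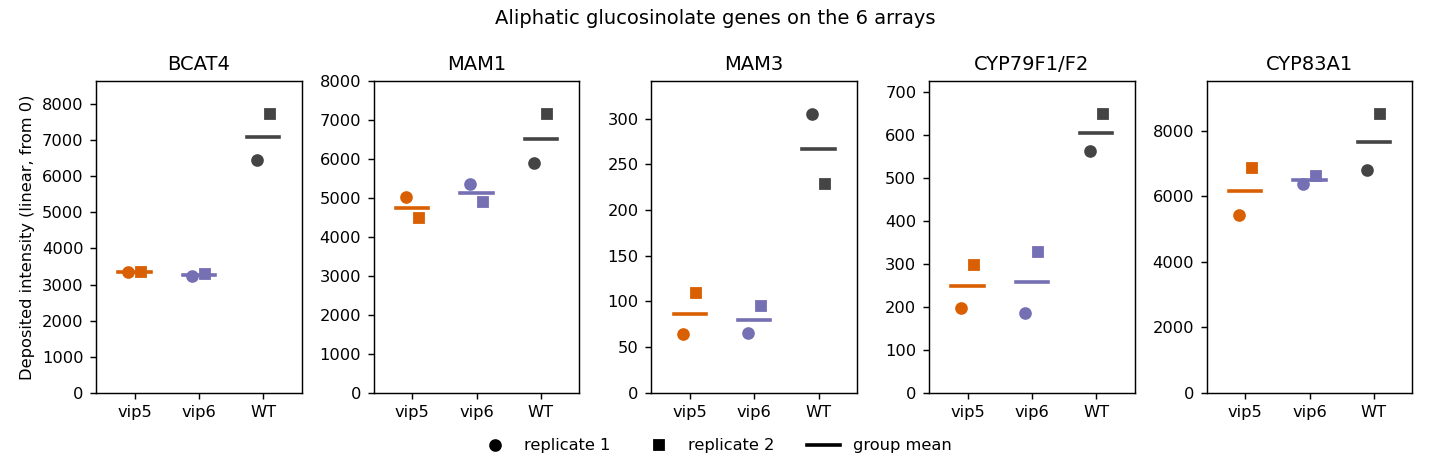
Deposited intensity (linear, each vertical axis starting at 0) of the 5 probe sets on the 2 vip5, 2 vip6 and 2 WT arrays, with circles for replicate 1, squares for replicate 2 and a bar for the group mean. The 4 mutant arrays of BCAT4 sit between 3230 and 3357 and those of MAM3 between 64 and 109.3, all below WT, while vip5 and WT overlap for CYP83A1.

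**Figure D2:**
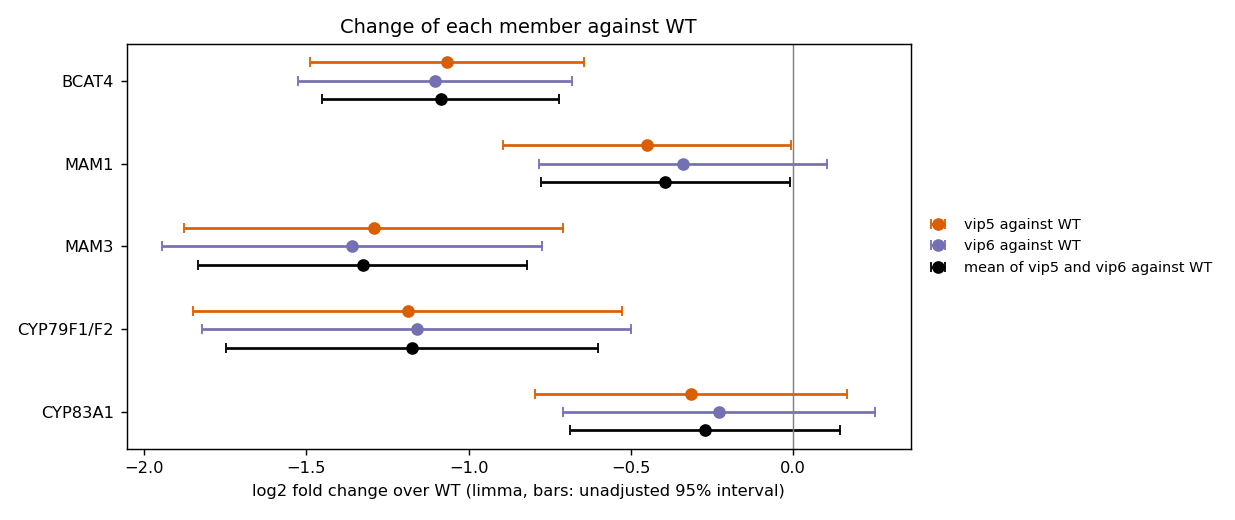
Log2 fold change over WT of each member in vip5, in vip6 and for the average of both mutants, with unadjusted 95% intervals from the limma model. BCAT4, MAM3 and CYP79F1/F2 lie between -1.07 and -1.36 and MAM1 and CYP83A1 between -0.23 and -0.45.

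Taken over the members, 0 of 5 passed an adjusted p of 0.05 as lower in vip5, against 0.0419% of all tested probe sets, and 0 of 5 in vip6, against 0.0698%. For the average of the mutants 1 of 5 passed as lower, against 0.223%. At an unadjusted limma p below 0.05, 4 of 5 members were lower in vip5 against 5.82% of tested probe sets, 3 of 5 in vip6 against 5.32%, and 4 of 5 for the average against 6.81%. All 4 mutant arrays lay below both WT arrays for 4 of 5 members, CYP83A1 being the exception, as they did for 13.2% of tested probe sets. Taken singly, vip5 lay below WT without overlap for 4 of 5 members and vip6 for 5 of 5, against 20.8% of tested probe sets in either mutant. The median log2 fold change of the members was -1.07 in vip5 and -1.10 in vip6, and that of all tested probe sets was -0.0042 in vip5 and -0.012 in vip6. MAM3 is counted among the lower members at unadjusted p and among those without overlap. It met the brightness filter mainly through WT, so its place in these counts is a description only. Both mutants were compared with the same 2 WT arrays, so their values against WT are not independent of each other.

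BCAT4, MAM3 and CYP79F1/F2 were the 3 of 5 members whose average fold change in the mutants reached -1 or below on the log2 scale, where 0.733% of tested probe sets lay. For MAM3, which met the brightness filter through WT, that place is a description only. MAM1 and CYP83A1 had 9.42% and 17.9% of tested probe sets below them.

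**Figure D3:**
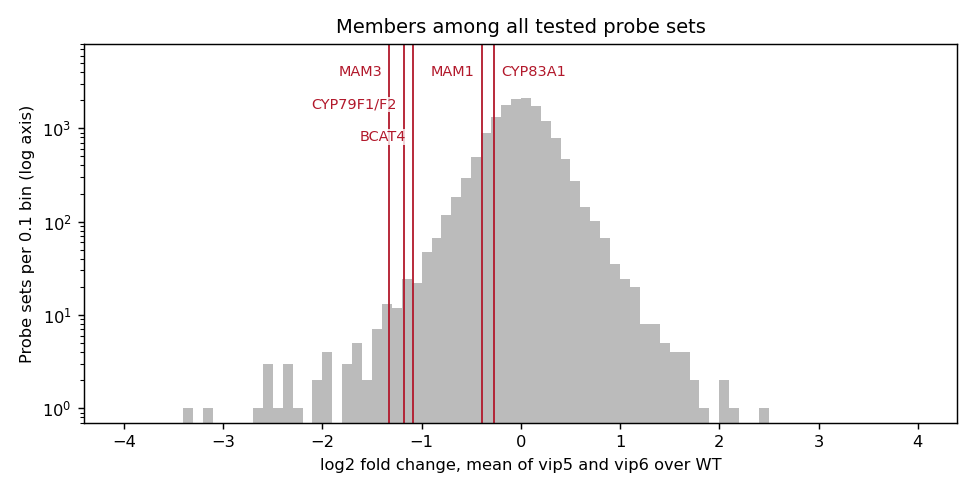
Histogram of the log2 fold change of the average of vip5 and vip6 over WT for all 14323 tested probe sets, with the count per bin on a log axis and red lines at the 5 members. MAM3, CYP79F1/F2 and BCAT4 lie in the lower tail at -1.33, -1.17 and -1.09, and MAM1 and CYP83A1 lie at -0.39 and -0.27, inside the bulk.

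Within replicate number 1, the log2 difference from WT in vip5 and vip6 was -0.94 and -0.99 for BCAT4, -1.73 and -1.72 for MAM3, and -1.35 and -1.42 for CYP79F1/F2. Within number 2 it was -1.19 and -1.22 for BCAT4, -0.85 and -1.0 for MAM3, and -1.02 and -0.90 for CYP79F1/F2. The direction was thus the same in both numbers and both mutants for these genes, and the size of the MAM3 difference depended on the number. CYP83A1 differed by -0.32 and -0.098 within number 1 and by -0.30 and -0.36 within number 2. With the replicate number as a block in the limma model, BCAT4 passed (adjusted p of 0.0212 for vip5 and 0.0203 for vip6), as did MAM3 at 0.0290 in both, and CYP79F1/F2 at 0.0203 and 0.0229. These are 3 of 5 members in each mutant, against 1.21% of tested probe sets lower in vip5 and 1.05% in vip6 in the same fit. For the average of the mutants they are 3 of 5, against 2.25%. MAM3 is 1 of the 3 and met the brightness filter mainly through WT, so its place in these counts is a description only. MAM1 (adjusted p = 0.243 and 0.394) and CYP83A1 (adjusted p = 0.374 and 0.554) did not pass with the block. The labels do not say what the number stands for, so these calls hold only if same-numbered arrays share a source of variation.

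The neighbouring genes MAM1 and MAM3 act at the same step, so their values were set against each other within each array, a comparison chosen after the values were seen. The log2 value of MAM3 minus that of MAM1 was -5.62 and -4.92 in vip5, -5.69 and -5.21 in vip6, and -4.11 and -4.74 in WT. It was lower on every mutant array than on either WT array, by 0.93 on average. That is an unequal change of the pair and says nothing of their relative abundance. Most of the gap came from replicate 1, at -5.62 in vip5, -5.69 in vip6 and -4.11 in WT. Within replicate 2 the values lay closer, at -4.92, -5.21 and -4.74 in that order. MAM3 is dim, so the size of the gap also depends on the pseudocount. The same difference for CYP79F1/F2 minus CYP83A1, which act in sequence, was -4.54 and -4.36 in vip5, -4.83 and -4.18 in vip6, and -3.51 and -3.64 in WT, and the mutants and WT again did not overlap. Since the pairs were chosen on their values, no test is given. MAM1 and CYP83A1 lay between the 96.9th and 98.8th percentile of their arrays, and the part that their brightness plays in these differences was not tested.

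The mutants were then compared with each other, to see whether any step depended on the choice of mutant. No member differed between vip6 and vip5 (0 of 5, against 0% of tested probe sets by adjusted p, and 0 of 5 against 1.54% by unadjusted limma p below 0.05). The log2 difference, vip6 minus vip5, was -0.037 for BCAT4 (95% interval -0.46 to 0.38), 0.11 for MAM1 (-0.33 to 0.56), -0.067 for MAM3 (-0.65 to 0.52), 0.027 for CYP79F1/F2 (-0.63 to 0.69) and 0.085 for CYP83A1 (-0.40 to 0.57). The widest of these intervals, that of CYP79F1/F2, reaches 0.69, so a likeness of the mutants is not shown by these tests.

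Other genes of glucosinolate metabolism were taken from 8 lists of 69 loci, of which 11 are named by a probe set and 10, BCAT4 among them, were tested. None of the other 9 passed the test in vip5, in vip6 or for their average, with or without the replicate block. In the core pathway, GSTU20, a glutathione transferase thought to act after CYP83A1, was at 4937 and 6150 in vip5, 5089 and 6904 in vip6, and 6925 and 10713 in WT. Its mutant arrays all lay below both WT arrays, as they did for 13.2% of tested probe sets. The log2 fold changes of GSTU20 were -0.64 and -0.54 (limma adjusted p = 0.449 and 0.573). UGT74C1, a glucosyltransferase of the aliphatic branch, was at 1222 and 1313 in vip5, 1184 and 1784 in vip6, and 1712 and 2376 in WT, so that vip6 overlapped WT and vip5 did not. Its log2 fold changes were -0.66 and -0.46 (limma adjusted p = 0.422 and 0.608). UGT74B1, the glucosyltransferase that serves aliphatic and indolic compounds, had -0.19 and -0.036 (limma adjusted p = 0.800 and 0.979).

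Of the side chain genes, AOP1 had log2 fold changes of 0.13 in vip5 and 0.11 in vip6, and AOP3, at 20.4 to 36 on all arrays, was too dim to be tested. The transcription factor genes MYC3 and MYC4, which act with MYB proteins on this pathway, had vip5 values of 0.019 and -0.14 and vip6 values of 0.086 and 0.029. The glucosinolate transporter genes GTR1 and GTR2 had vip5 values of -0.16 and -0.56 and vip6 values of -0.22 and -0.53. All mutant arrays of GTR1 lay below both WT arrays, the closest at 1119.7 in vip6 against 1132.9 in WT. The same held for 13.2% of tested probe sets. GTR2 was at 1481 and 956 in vip5, 1575 and 943 in vip6, and 1483 and 2123 in WT, with overlap. ATPS3, an ATP sulfurylase that feeds sulfate into sulfur metabolism, had 0.34 and 0.31. All its mutant arrays lay above both WT arrays, and the share of tested probe sets that did so was not computed. The limma adjusted p values of these genes lay between 0.586 and 0.990. The 3 MYB regulators of the aliphatic branch, the 13 loci of the indolic branch and the 4 leucine synthesis paralogues have no probe set named in the annotation, so the aliphatic branch was not compared with the indolic branch here.

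**Figure D4:**
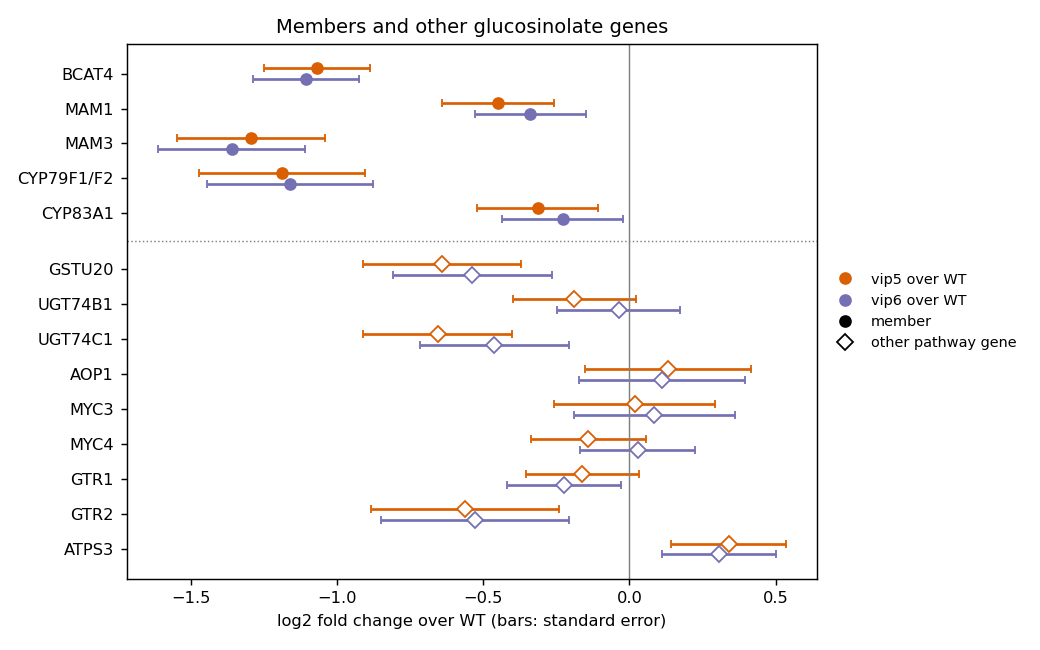
Log2 fold change over WT with its standard error in vip5 (orange) and vip6 (purple), for the 5 members (filled circles, above the dotted line) and the 9 other tested glucosinolate genes (open diamonds). BCAT4, MAM3 and CYP79F1/F2 lie below -1 in both mutants, GSTU20, UGT74C1 and GTR2 lie between -0.66 and -0.46, and ATPS3 lies above 0.

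The genes whose level followed the mean log2 value of the 5 members most closely over the 6 arrays were sought among 1009 tested probe sets that name 1 gene and span at least 1 log2 unit. The 10 closest had Pearson correlations of 0.983 to 0.999 over 6 arrays, a measure that mostly reflects the gap between 4 mutant and 2 WT arrays that all of them share. SBT3.12, a subtilisin-like protease gene, was the closest (0.999), at 37.7 and 59 in vip5, 41.4 and 62.4 in vip6, and 141.9 and 171.6 in WT. MSRB6, which encodes a methionine sulfoxide reductase, followed (0.996), at 430.3 and 490.9 in vip5, 451 and 537.3 in vip6, and 1008 and 1159 in WT. In both genes replicate 2 was the brighter in every group and the mutants stayed below WT. The mean of the members that they were chosen to follow has these same traits, so the choice set them. The other 8 were AT1G62480, AT4G02850, AT2G33180, the glutamate receptor-like gene GLR2.7, the auxin response repressor gene IAA29, AT1G33811, the subtilase gene AT4G21650 and AT3G47540. Of the 10, AT4G21650 passed the limma test in each mutant and for their average (adjusted p = 0.0197 for vip5, 0.0359 for vip6 and 0.0113 for the average). MSRB6 passed for the average of the mutants only (limma adjusted p = 0.0496). The 10 were chosen on the values of these same arrays, so the passes among them are a description only. SBT3.12, GLR2.7 and IAA29 met the brightness filter through WT alone. All 10 were lower in both mutants, a direction set by choosing genes that followed the members. Their log2 fold changes for the average lay between -1.97 for AT4G21650 and -0.85 for GLR2.7.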

How the data were processed

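The deposited table holds linear intensity values for 6 arrays, none of them negative, and the authors' scanning and summarising software is not stated in the labels. The 2% trimmed means of the arrays lay between 494.4 and 496.5, so the deposited intensities were used without further normalization. After 64 control probe sets were set aside, probe sets above the 40th percentile on 2 or more arrays were tested, and log2(intensity + 39.4), the pseudocount being the median 25th percentile, was fitted to 3 group means over all 6 arrays (limma 3.58.1, R 4.3.3, lmFit and eBayes, two-sided, Benjamini-Hochberg over 14323 probe sets, threshold 0.05). SDs are of intensities, standard errors of the log2 fit. Fold changes on this scale understate changes of dim probe sets. The fit was also tested on simulated data: most 2-fold changes simulated between vip5 and WT were missed, so a member that did not pass may still have changed.

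Groups and replicate numbers came from the sample titles. The differences between numbers 2 and 1 correlated over the tested probe sets at 0.306 between vip5 and WT, 0.308 between vip6 and WT and 0.655 between vip5 and vip6; calls with the number as a block are therefore given beside those without it, a choice made with the calls of both fits known. Gene names came from the platform annotation (13513 probe sets with 1 gene, 503 with several, 8730 not listed), updated through gene identifiers to TAIR10.1. The members, the pathway and marker lists and the contrast of averaged mutants were chosen with earlier results of these data known. Named genes were all members, up to 4 tested genes of each list, and the 10 probe sets most correlated with the members. Alternatives covered normalization, pseudocount, filter, variance trend, arrays in the fit, the replicate block and each array left out; the block with quantile normalization was added after the data were seen. Figures were drawn with matplotlib 3.10.9.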

Additional observations from a re-analysis of the deposited data

How the results depend on the processing

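Several alternatives cannot move a fold change: the filter, the variance trend, the replicate block and the fit of only the arrays compared. Nor can leaving out an array of a group that is not compared. All 205 fold changes of the 5 members against WT recomputed under 14 alternatives, these repeats included, stayed below 0. The number of members past the threshold did not: it was 3 of 5 in vip5, in vip6 and for their average with the replicate block, and again 3 of 5 in each with the block after quantile normalization (added after the data were seen), while the 1 member for the average became 0 with a pseudocount of 16, with no filter, and on leaving out any 1 array. MAM3, 1 of the 3 with the block, met the brightness filter mainly through WT. Over all tested probe sets, 11 passed in vip5, 15 in vip6, 0 between the mutants and 51 for the average. With the block these became 313, 253, 1 and 582; with the block and quantile normalization 266, 174 and 499 in the comparisons against WT. With no filter they were 2 in vip5, 1 in vip6 and 2 for the average, and with only the arrays compared 18 in vip5 and 5 in vip6. Leaving out 1 array gave 0 to 18 in vip5, 0 to 5 in vip6 and 0 to 29 for the average, with fewer arrays to estimate the spread and a lone array assumed to vary like the other groups. The average count was 0 without WT replicate 1 or without WT replicate 2. Between vip6 and vip5, leaving out 1 array turned the sign of 3 differences, none of which had passed: MAM3 ranged from -0.33 to 0.195, CYP79F1/F2 from -0.33 to 0.38 and CYP83A1 from -0.083 to 0.25. The cause of the other changes was not tested. The labels do not say what a replicate number pairs, so the block may understate the spread against WT. The number of arrays limits every value, and no background values were given for dim probe sets such as MAM3.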

Other observations

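The protein-coding genes on either side of the members in the RefSeq order were looked up by position. Of the 8 neighbours, 4 have a probe set named in the annotation and 1 was bright enough to be tested. AT4G13780, beside CYP83A1, averaged 1053 in vip5, 1163 in vip6 and 1294 in WT, with a log2 fold change of -0.17 for the average of the mutants (limma adjusted p = 0.834). IKU2, a receptor kinase gene of seed growth beside BCAT4, averaged 45.9 in vip5, 31.1 in vip6 and 32.5 in WT, and the tetraspanin gene TET12, beside MAM3, averaged 15.6, 9.2 and 11.7 in the same order. AT4G13760, on the other side of CYP83A1, averaged 13.5 in vip5, 12.4 in vip6 and 1.8 in WT, at intensities too dim to be tested.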
